A study of Mus musculus with 12 samples.

Results

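The genes described here are 9 markers of liver sinusoidal endothelial cells: Stab1, Stab2, Lyve1, Clec4g, Fcgr2b, Oit3, Gpr182, Dnase1l3 and Kdr. They were taken as the rows of the deposited count table whose Ensembl gene ID maps to these symbols, which gave 9 of 56923 IDs, 1 row per gene. Their RNA was measured in whole liver of 12 mice (wild-type C57BL/6J), 3 to each of 4 groups, labelled as biological replicates. All 12 mice, the control group included, entered at 6 weeks of age and were injected into the peritoneum with carbon tetrachloride, 200 µL of a 7.5% solution in olive oil 2 times a week over 6 weeks. Control mice had this injury without curcumin, and the other groups also received curcumin by gavage every day for 2 weeks. Their doses were 25 mg/kg in the low, 50 mg/kg in the medium and 100 mg/kg in the high group. The series as analysed here holds no uninjured liver, so each value describes injured liver with or without curcumin. The labels do not say whether control mice had a gavage without curcumin, and they give 3 mice to a cage without saying which mice shared one.

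Sinusoidal endothelial cells line the small vessels between the plates of hepatocytes. They are open to plasma through pores, have no continuous basement membrane, and clear waste macromolecules from the blood by endocytosis. In chronic injury this lining is known to lose its pores and take on features of ordinary capillaries, a process called capillarisation, in which several of its scavenger receptors are known to decline. Carbon tetrachloride is a hepatotoxin used to scar the rodent liver, and curcumin is the yellow polyphenol of turmeric.

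No member passed the test at any dose of curcumin, and mice of the same group differed widely. Dnase1l3, a secreted DNase, ran from 3.27 to 14.1 CPM (read counts relative to the size of the library, on a fixed scale) within the high group alone. Stab1 stayed between 16.7 and 28.6 CPM in all 12 livers. Dnase1l3, Gpr182, Oit3, Fcgr2b and Lyve1 were lower in the livers where mitochondrially encoded transcripts took a larger share of the library.

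By role the members fall into 4 kinds. Stab1 and Stab2 encode stabilin-1 and stabilin-2, large endocytic scavenger receptors, and stabilin-2 is the main receptor that takes hyaluronan out of the blood. Lyve1 encodes a further hyaluronan receptor, shared with lymphatic vessels. Clec4g encodes the C-type lectin LSECtin, and Fcgr2b the inhibitory Fc receptor that removes immune complexes. Gpr182 encodes an atypical chemokine receptor of sinusoidal and lymphatic endothelium, and Kdr the vascular endothelial growth factor receptor VEGFR2. Oit3 and Dnase1l3 encode secreted proteins, the second a DNase that digests DNA in chromatin and in microparticles of the plasma.

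Promoter sequence is shown for Stab2, Clec4g and Kdr, because Kdr and Clec4g had the highest r with Stab2 across the 12 livers, although Clec4g did not pass by rank, as given further on. Each line is the 250 bases before the RefSeq start on build GRCm38.p6, all 3 on the minus strand, written 5′ to 3′: chr10:87007943-87008192 for Stab2, chr8:3720652-3720901 for Clec4g and chr5:75978456-75978705 for Kdr. Capitals mark the ETS-type hexamer AGGAAG or its reverse complement CTTCCT.
Stab2: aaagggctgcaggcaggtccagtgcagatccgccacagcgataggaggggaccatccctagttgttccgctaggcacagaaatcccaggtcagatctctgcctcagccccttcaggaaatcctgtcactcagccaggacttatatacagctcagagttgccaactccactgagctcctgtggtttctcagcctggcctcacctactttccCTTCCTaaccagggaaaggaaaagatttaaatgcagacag
Clec4g: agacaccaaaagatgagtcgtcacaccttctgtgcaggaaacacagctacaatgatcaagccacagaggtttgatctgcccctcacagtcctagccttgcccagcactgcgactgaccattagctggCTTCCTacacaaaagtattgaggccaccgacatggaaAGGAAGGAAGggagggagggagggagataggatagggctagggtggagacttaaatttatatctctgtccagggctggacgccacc
Kdr: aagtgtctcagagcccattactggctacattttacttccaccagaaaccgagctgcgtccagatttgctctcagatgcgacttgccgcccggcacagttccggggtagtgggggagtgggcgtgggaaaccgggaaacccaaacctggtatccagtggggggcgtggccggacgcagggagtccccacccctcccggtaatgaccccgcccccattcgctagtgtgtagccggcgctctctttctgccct
The Stab2 window holds CTTCCT 1 time, beginning at position -40 relative to the start. Clec4g holds 3 matches, beginning at -123, -86 and -82, of which the last 2 overlap. Neither Kdr nor Fcgr2b had a match, and Stab1 had 1. Over both strands of the 300 bases from 250 before to 50 after the start, AGGAAG was found in 35.4% of 32851 RefSeq promoters. The GATA hexamer AGATAA, held by 11.2% of promoters, was in none of the 5 member promoters searched (Stab1, Stab2, Clec4g, Fcgr2b, Kdr). The MAF-type hexamer TGCTGA, held by 19.5%, was in that of Stab1. These matches describe letters only. The table had 5 of the 9 members, without Lyve1, Oit3, Gpr182 and Dnase1l3.

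The 12 libraries held 36015134 to 70376474 counts, and the 9 members together 1741 to 9397 of them. Mitochondrially encoded transcripts made up 30.3% to 64.7% of a library, and 4 libraries were under 50%: low replicate 3 (43.0%), medium replicate 1 (48.3%), high replicate 1 (30.3%) and high replicate 3 (42.1%). Near-identical nuclear copies of mitochondrial genes took a further 10.9% to 23.3% of a library. Counts outside both ran from 5180318 in low replicate 1 to 36377767 in high replicate 1. The mitochondrial share, without the copies, averaged 61.2% ± 2.81 (SD, n = 3) in control and 56.9% ± 12.1 in low livers. Medium and high livers averaged 54.7% ± 6.01 and 45.7% ± 17.5. A CPM here is scaled by a trimmed mean of ratios over genes (TMM), which counters this difference for a typical gene. With scaling by library totals instead, the median gene alone would move by 0.11, 0.47 and 0.71 on the log2 scale at the low, medium and high dose.

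All 9 genes had counts in every library and passed the filter on low counts, so the sinusoidal endothelial label was borne by detectable RNA throughout. The fewest were 5 counts of Lyve1 in low replicate 2, and the most were 2369 counts of Stab1 in low replicate 3. A count of 3 corresponds to 0.0426 to 0.0833 CPM. Of the 20 pan-endothelial markers, 18 had counts in every library. The read assignment was not described with respect to strand. Exons of Stab1 and Gpr182 overlap those of Nt5dc2 and Zbtb39 on the opposite strand, and exons of Stab2, Clec4g and Fcgr2b overlap antisense transcripts, so their counts could include reads of these partners. In Fcgr2b, 14.4% of the transcript also matched Fcgr3, another Fc receptor, at 90% identity or more. The origin of the reads is therefore less certain for these members than for Lyve1, Oit3, Dnase1l3 and Kdr. Low counts limit Lyve1 and Oit3 instead, with as few as 5 and 13 in a library.

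Per kilobase of transcript, Clec4g had the highest level of the 9 genes and Lyve1 the lowest. The means over 12 livers were 4.83 ± 1.40 CPM per kilobase (SD, n = 12) for Clec4g, 3.89 ± 1.24 for Fcgr2b and 2.91 ± 0.487 for Stab1. Stab2 had 1.44 ± 0.288, Dnase1l3 1.28 ± 0.822 and Gpr182 0.838 ± 0.280 CPM per kilobase. Oit3, Kdr and Lyve1 had 0.671 ± 0.386, 0.507 ± 0.145 and 0.317 ± 0.194. Not every step in this order was larger than the spread between livers. Stab1 exceeded Stab2 in 12 of 12 livers and Fcgr2b exceeded Stab1 in 11, whereas Stab2 exceeded Dnase1l3, and Oit3 exceeded Kdr, in only 8 of 12. Clec4g and Fcgr2b stood in that order in 9 livers. The order was the same with the length of the merged exons in place of the longest transcript.

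Whether curcumin altered the stabilins was asked first. Neither Stab1 nor Stab2 differed from control at any dose beyond the spread between mice. Stab1 had 20.9, 25.9 and 16.7 CPM in the control livers, 28.6, 18.7 and 26.1 in the low, 21.6, 24.8 and 28.4 in the medium and 19.8, 21.7 and 26.3 in the high livers. The 4 ranges overlapped, with control replicate 3 the lowest and low replicate 1 the highest. Its log2 fold changes, fitted with edgeR over all 12 livers, were 0.21 (SE 0.26) at the low, 0.24 (SE 0.26) at the medium and 0.10 (SE 0.26) at the high dose. The edgeR p at the high dose, adjusted over all 16839 tested genes by Benjamini-Hochberg and read against a threshold of 0.05, was 0.892, and the 95% interval there ran from -0.46 to 0.65.

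Stab2 had 13.9, 15.8 and 8.47 CPM in control, 13.5, 8.18 and 14.8 in low, 11.7, 10.9 and 11.4 in medium and 12.5, 9.87 and 11.6 in high livers. Control livers ran both above and below all medium and high livers, and the low livers spanned nearly the control range. The medium livers were close together, with a coefficient of variation of 3.72% against 30.0% in control livers. The fold change of Stab2 was -0.07 (SE 0.27) on the log2 scale at the low dose, the only one of the 9 below 0 there, and was -0.17 at the medium and -0.17 at the high dose. The edgeR adjusted p at the high dose was 0.805, with a 95% interval from -0.77 to 0.43. These signs turned when libraries were scaled by their totals, to 0.09, 0.23 and 0.52.

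Lyve1 was the least abundant member and among the most variable. It had 0.805, 0.468 and 0.334 CPM in control, 0.858, 0.140 and 1.37 in low, 2.14, 1.03 and 0.592 in medium and 1.17, 0.611 and 1.49 in high livers. Low replicate 2 was the lowest liver and medium replicate 1 the highest, a 15.3-fold span that rests on 5 and 138 counts. The log2 fold changes were 0.59 (SE 0.70), 1.23 (SE 0.69) and 1.04 (SE 0.69) in order of dose. None passed the threshold, with edgeR adjusted p of 0.911, 0.997 and 0.515. In whole tissue, fewer endothelial cells and less RNA per endothelial cell cannot be told apart for this or any other member.

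**Figure D1:**
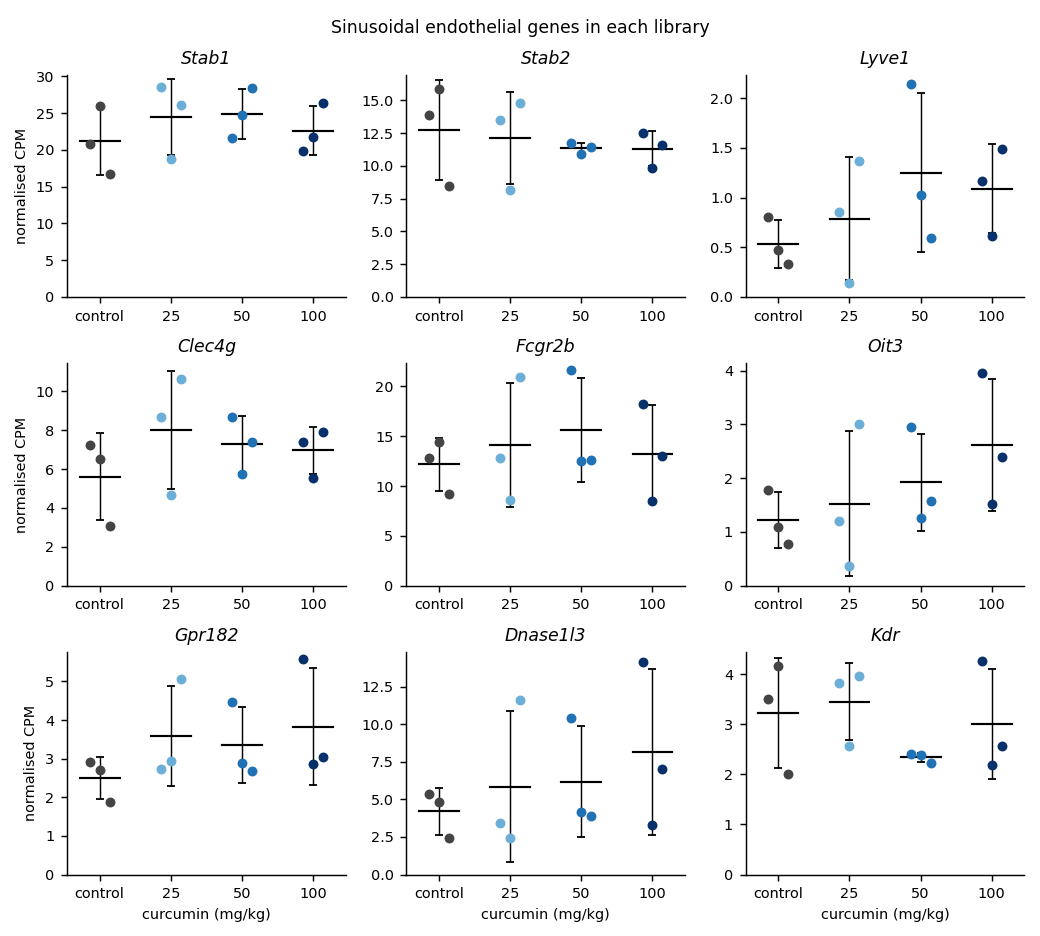
Normalised CPM (vertical axes, each starting at 0) of the 9 genes in control livers and at 25, 50 and 100 mg/kg curcumin. Points are single livers, horizontal lines group means and bars 1 SD (n = 3). In all panels the points of each dose overlap those of the control livers, and 1 liver of each treated group stands high for Dnase1l3 (11.6, 10.5 and 14.1 CPM).

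The lectin Clec4g and the Fc receptor Fcgr2b also overlapped between groups. Clec4g had 7.22, 6.54 and 3.08 CPM in control, 8.70, 4.66 and 10.6 in low, 8.66, 5.75 and 7.41 in medium and 7.40, 5.57 and 7.91 in high livers. Control replicate 3 was the lowest of the 12, and low replicate 3 the highest. The log2 fold changes were 0.51 (SE 0.35), 0.37 (SE 0.35) and 0.31 (SE 0.35) in order of dose, with an edgeR adjusted p of 0.714 at the high dose. Without control replicate 3 the value at the high dose was 0.02.

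Fcgr2b had 12.9, 14.5 and 9.23 CPM in control livers, 12.8, 8.60 and 20.9 in low, 21.6, 12.6 and 12.6 in medium and 18.2, 8.48 and 13.1 in high livers. A single liver in each treated group, low replicate 3, medium replicate 1 and high replicate 1, lay above all controls, while the others lay within or below the control range. Its log2 fold changes were 0.21 (SE 0.37), 0.36 (SE 0.37) and 0.12 (SE 0.37), and the edgeR adjusted p at the high dose was 0.907. Fcgr2b is also expressed by B cells and macrophages. All 8 B cell markers had values below control at each dose, with a median log2 fold change of -1.01, -0.82 and -1.70 and none past the threshold, and their summed level was 18.9 to 40.4 CPM in control against 6.95 to 10.6 in high livers. The part of these cells in the Fcgr2b values was not tested.

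Gpr182, the chemokine receptor, had 2.92, 2.704 and 1.87 CPM in control, 2.73, 2.93 and 5.07 in low, 4.48, 2.88 and 2.69 in medium and 5.58, 2.87 and 3.04 in high livers. As with Fcgr2b, 1 liver per treated group was far above the others, and the remaining 6 treated livers lay between 2.69 and 3.04 CPM. The log2 fold changes were 0.53 (SE 0.35), 0.42 (SE 0.35) and 0.62 (SE 0.35), with edgeR adjusted p of 0.855, 0.997 and 0.453. Over all doses against control the value was 0.52 (SE 0.30), with an edgeR unadjusted p of 0.103, the smallest of the 9 genes in that comparison, and an adjusted p of 0.580.

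Kdr had 3.50, 4.15 and 2.01 CPM in control, 3.82, 2.57 and 3.96 in low, 2.40, 2.39 and 2.23 in medium and 4.26, 2.18 and 2.57 in high livers. The medium livers were the closest group of any member except Stab2, with a coefficient of variation of 4.14%, and sat inside the control range near its lower end. The log2 fold changes of this growth factor receptor were 0.10 (SE 0.33), -0.46 (SE 0.33) and -0.10 (SE 0.33), with edgeR adjusted p of 0.966, 0.997 and 0.917. At the high dose the value was -0.44 without high replicate 1, 0.13 without control replicate 2 and 0.64 with scaling by library totals.

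The genes of both secreted proteins, Dnase1l3 and Oit3, varied widely within groups, with a pooled SD of 0.93 and 0.92 on the log2 scale beside 1.01 for Lyve1 and 0.27 to 0.51 for the other 6 members. Oit3 had 1.79, 1.09 and 0.780 CPM in control, 1.21, 0.363 and 3.01 in low, 2.94, 1.25 and 1.57 in medium and 3.95, 1.53 and 2.39 in high livers. The high livers overlapped the controls only through high replicate 2. At the high dose the log2 fold change of 1.12 (SE 0.63; 95% interval -0.25 to 2.48) was the largest of the 9 members, with an edgeR unadjusted p of 0.0999 and an adjusted p of 0.448. The slope on dose was 1.10 on the log2 scale over 100 mg/kg (SE 0.55), with an unadjusted p of 0.0640 and an edgeR adjusted p of 0.468.

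Dnase1l3 had 5.38, 4.82 and 2.45 CPM in control, 3.43, 2.46 and 11.6 in low, 10.5, 4.15 and 3.92 in medium and 14.1, 3.27 and 7.03 in high livers. The 4 livers above all controls were the 4 whose mitochondrial share was under 50%. The log2 fold changes were 0.48 (SE 0.64), 0.55 (SE 0.64) and 0.95 (SE 0.64; 95% interval -0.44 to 2.35), with edgeR adjusted p of 0.921, 0.997 and 0.517. A single liver decided much of this: the high-dose value was 0.30 without high replicate 1 and 1.33 without high replicate 2, and the low-dose value was -0.53 without low replicate 3.

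**Figure D2:**
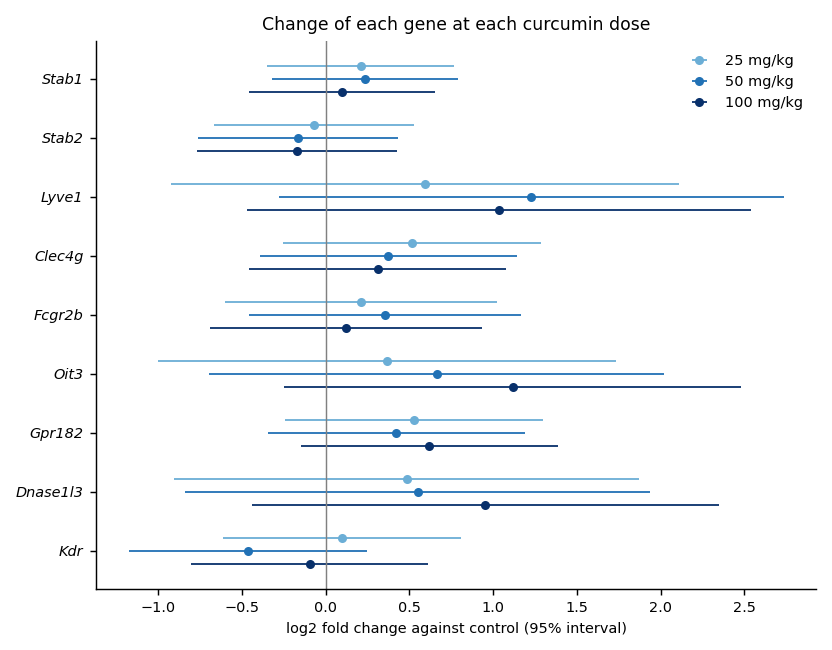
Log2 fold change of each gene against control (horizontal axis) at 25, 50 and 100 mg/kg curcumin, with 95% intervals from edgeR (3 livers per group). Every interval crosses 0, and they are widest for Lyve1, Oit3 and Dnase1l3.

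Across the list, most values lay above 0 without passing the test. At the low dose 8 of 9 members had a fold change above 0, and at the medium and at the high dose 7 of 9. The median log2 fold change of the members was 0.37, 0.37 and 0.31 in order of dose, against 0.01, 0.02 and 0.03 for all 16839 genes tested. The 3 comparisons share the same control livers. Without control replicate 3, the liver with the lowest values of 5 members, the median at the high dose was 0.02.

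The members that passed the threshold numbered 0 of 9 at each dose, over all doses, on the slope and in the test among the 4 groups, where edgeR called 0% of all genes in each. At an unadjusted p under 0.05, edgeR also had 0 of 9 members in each of these, beside 5.99% of all genes at the low, 5.58% at the medium and 12.8% at the high dose. The same background was 9.37% for all doses against control, 11% for the slope and 6.07% for the test among the 4 groups. DESeq2 and limma called 0 members as well, while DESeq2 called 32, 80 and 157 genes at the 3 doses and limma 0, 35 and 256. At the high dose limma gave Lyve1 1.47 with an unadjusted p of 0.0332 and an adjusted p of 0.150. Oit3 had 1.11 there, with limma unadjusted and adjusted p of 0.0360 and 0.155. The share of all genes under 0.05 by the unadjusted limma p is not given. No member had groups that did not overlap, as 13.8%, 14% and 13% of all genes did at the low, medium and high dose. The 95% interval of the log2 fold change at the high dose was narrowest for Stab1, as given above. For Lyve1 it ran from -0.47 to 2.54. Moderate differences could be missed with 3 livers a group.

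The levels of 5 members followed the mitochondrial share of the library. For Dnase1l3 the levels were 7.03 to 14.1 CPM in the 4 livers under 50% and 2.45 to 5.38 in the other 8, without overlap. Oit3 (2.39 to 3.95 against 0.363 to 1.79), Gpr182 (3.04 to 5.58 against 1.87 to 2.93) and Lyve1 (1.17 to 2.14 against 0.140 to 1.03) did not overlap either. The share of all genes that separated in the same way is not given, so this is not read as particular to the members. By correlation, 17.5% of all genes fell with the share past the threshold, as given below. The ranges of Stab1, Stab2, Clec4g, Fcgr2b and Kdr did overlap. These 4 livers are 1 low, 1 medium and 2 high ones, and 0 of the 3 controls.

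Over the 12 livers, log2 CPM of Dnase1l3 had a Pearson r of -0.91 with the share (permutation p = 0.0001) and a Spearman rho of -0.92 (permutation p = 5e-05). Gpr182 had r = -0.83 (permutation p = 0.00164), Oit3 -0.80 (permutation p = 0.0017), Fcgr2b -0.73 (permutation p = 0.00706) and Lyve1 -0.68 (permutation p = 0.0149). The rho of these 4 genes was -0.75, -0.83, -0.78 and -0.80, with permutation p of 0.0066, 0.00172, 0.0037 and 0.0026. Adjusted over all 16839 genes by Benjamini-Hochberg, the permutation p of r was 0.00217 for Dnase1l3, 0.00966 for Gpr182, 0.00989 for Oit3, 0.0271 for Fcgr2b and 0.0475 for Lyve1, and that of rho was under the threshold of 0.05 for the same 5. So 5 of 9 members passed with a negative r, beside 17.5% of all genes. With scaling by library totals 9 of 9 passed, beside 62.5% of all genes.

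Stab1 (r = -0.05, rho = -0.18, permutation p = 0.866 and 0.574) and Stab2 (r = -0.34, rho = -0.46, permutation p = 0.274 and 0.136) did not pass. Neither did Kdr (r = -0.40, rho = -0.49, permutation p = 0.195 and 0.109) and Clec4g (r = -0.52, rho = -0.62, permutation p = 0.0813 and 0.037, adjusted 0.169 and 0.12). Whether r differed between members was not tested. Without high replicates 1 and 3, the livers farthest from the median share, r was -0.94 for Dnase1l3, -0.87 for Gpr182, -0.75 for Oit3, -0.89 for Fcgr2b and -0.75 for Lyve1. Within groups, as deviations from the group means, it was -0.92, -0.84, -0.76, -0.88 and -0.65. Leaving out single livers kept Dnase1l3 and Oit3 past the threshold throughout, while 3 to 5 members passed in all: 3 without control replicate 3, low replicate 3, high replicate 1 or high replicate 2.

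**Figure D3:**
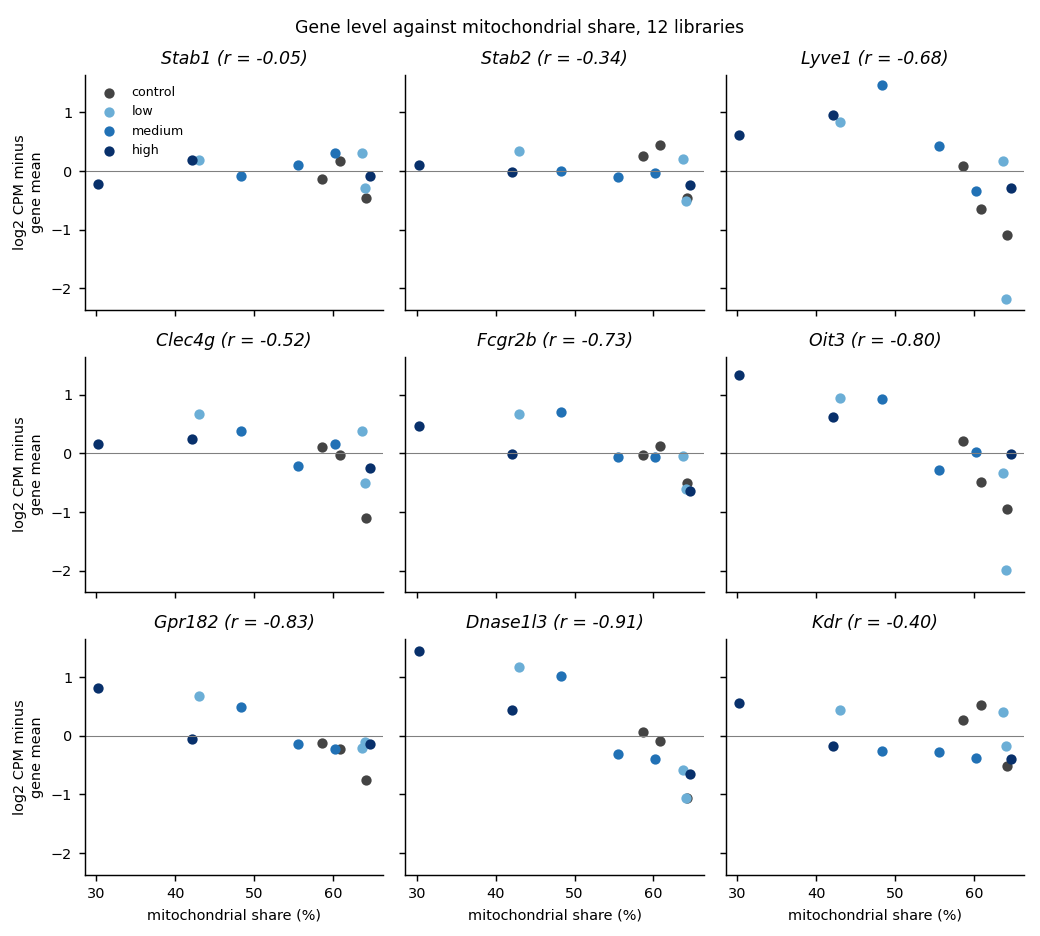
Log2 CPM of each gene minus its mean over the 12 livers (vertical axes) against the percentage of counts on mitochondrially encoded genes (horizontal axes). Each point is 1 liver, coloured by group. Dnase1l3 (r = -0.91) falls along the axis, whereas Stab1 (r = -0.05) is level.

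With the share as a covariate, added after seeing the data, several values at the high dose came close to 0 or turned. Oit3 went from 1.12 to 0.11, Lyve1 from 1.04 to 0.12 and Gpr182 from 0.62 to 0.05 on the log2 scale. Dnase1l3 went from 0.95 to -0.45, and Fcgr2b from 0.12 to -0.55 with an edgeR unadjusted p of 0.0376 and an adjusted p of 0.587. Clec4g went from 0.31 to -0.043, and Stab1 stayed at 0.10. Stab2 and Kdr moved away from 0, from -0.17 to -0.40 and from -0.10 to -0.51. The median of the members was then -0.01, 0.19 and -0.04 in order of dose. Leaving out the 4 livers under 50% instead gave -0.15, 0.17 and -0.02, with 1 high and 3 control livers in the last comparison, where the lone liver is assumed to vary like the other groups. The share and the high dose overlap in these livers, and the part of either in the values was not tested further.

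Relative to counts outside the mitochondrial genes and their near-identical nuclear copies, the 9 members summed to 303 ± 90.5 CPM (SD, n = 3) in control livers, 312 ± 84.8 in low, 326 ± 12.6 in medium and 277 ± 22.7 in high livers. The range over single livers, 213 to 394, was set at both ends by control livers. By this measure the sum in the high livers lay inside the control range. Such a sum is weighted to the abundant members. On the TMM scale, control livers averaged 21.2 CPM for Stab1, 12.7 for Stab2 and 12.2 for Fcgr2b, against 1.22 for Oit3 and 0.536 for Lyve1.

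How the members varied with each other was examined over their 36 pairs. All 36 had a positive Pearson r over the 12 livers, with a median of 0.66. This stands beside a median of 0.00 over all pairs of the 9640 genes whose log2 CPM averaged 1 or more. Lyve1 and Oit3 averaged below 1, so their pairs are set against pairs of more abundant genes. The closest pairs were Fcgr2b with Dnase1l3 (r = 0.91, rho = 0.90, permutation p = 0.00012 and 0.0002), Lyve1 with Oit3 (r = 0.90, rho = 0.83, permutation p = 8e-05 and 0.00149) and Gpr182 with Dnase1l3 (r = 0.90, rho = 0.77, permutation p = 0.00012 and 0.00479). Without the 2 livers farthest from the median of the first gene, r was 0.86, 0.80 and 0.78 for these pairs. Adjusted over the 36 pairs by Benjamini-Hochberg, 18 passed by r and 17 by rho. The lowest r among the 18 was 0.69, a value that 8.76% of all pairs of genes reached. Deviations from group means gave a median r of 0.76, with 35 pairs positive, as by rho. Leaving out the 2 livers farthest from the median of the first gene in each pair gave a median r of 0.49, and 8 pairs were then below 0, 6 of them with Stab1.

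Stab2 had its closest partner in Kdr (r = 0.80, rho = 0.76, permutation p = 0.00186 and 0.0058, adjusted 0.00959 and 0.0298), and r was 0.86 without the 2 livers farthest from the median of Stab2. With Clec4g it had r = 0.77 and rho = 0.65 (permutation p = 0.00271 and 0.0257, adjusted 0.00959 and 0.0514). That relation rested partly on the extreme livers, since r was 0.49 without the 2 farthest. Fcgr2b, with r = 0.70 and rho = 0.77 with Stab2 (permutation p = 0.0113 and 0.00488, adjusted 0.0239 and 0.0293), passed by both, and its r was 0.48 without the 2 farthest. The printed promoters of Stab2, Clec4g and Kdr share no hexamer of those searched across all 3. Stab1 stood most apart, with r of 0.09 with Gpr182 and 0.17 with Dnase1l3 (adjusted permutation p = 0.785 and 0.612). It came closest to Clec4g (r = 0.70, rho = 0.68, permutation p = 0.00839 and 0.0179, adjusted 0.0201 and 0.046), a value of 0.27 without the 2 livers farthest from the median of Stab1. Without those livers its r was -0.50 with Oit3, -0.47 with Gpr182 and -0.43 with Dnase1l3.

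Taking out a straight line on the mitochondrial share from every gene left a median r of 0.52 over the 36 pairs, 35 of them positive, beside 0.01 over all pairs. Fcgr2b with Dnase1l3 was then at 0.86, Lyve1 with Oit3 at 0.81 and Stab2 with Kdr at 0.77. Lyve1 with Kdr, at 0.22 before, was at -0.08.

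**Figure D4:**
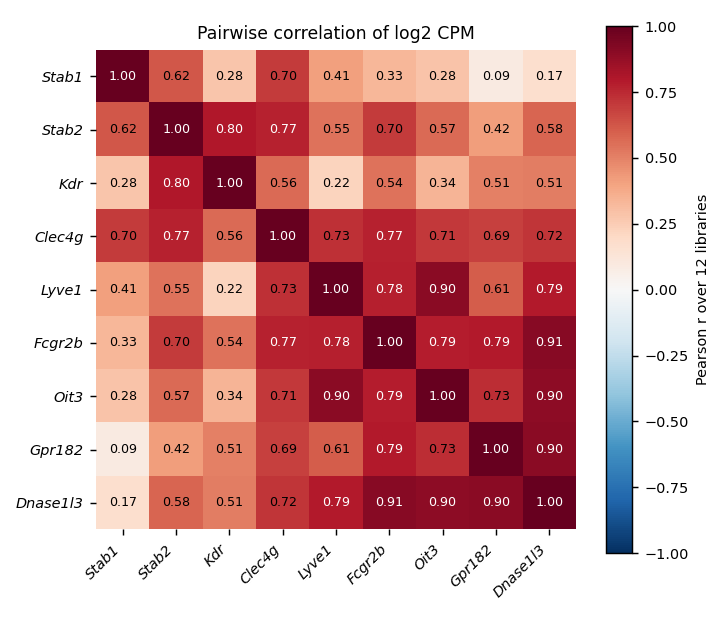
Pearson r of log2 CPM over 12 livers for each pair of genes, with r printed in each cell and coloured from -1 to 1. Values run from 0.09 (Stab1 with Gpr182) to 0.91 (Fcgr2b with Dnase1l3), and none is below 0.

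None of the other endothelial genes passed the test either. Of 16 further sinusoidal markers 8, 8 and 12 had a value above control at the low, medium and high dose, 0 passed the threshold, and their median log2 fold change was 0.10, 0.06 and 0.29. Ehd3, a membrane-trafficking ATPase of these cells, had 0.67 (SE 0.38), 0.61 (SE 0.38) and 1.24 (SE 0.38), with an edgeR adjusted p of 0.371 at the high dose, and the scavenger receptor Cd36 had 2.02 (SE 0.72) there. Bmp6, an endothelial signal for hepcidin, had 1.63 (SE 0.81) and the clotting factor gene F8 0.23 (SE 0.38) at the high dose. The 20 pan-endothelial genes had a median of 0.22, 0.03 and 0.38, with 0 past the threshold. The members minus the pan-endothelial genes, as mean centred log2 CPM, ran from -0.43 in control replicate 3 to 0.49 in medium replicate 2, and each group but the medium held livers on both sides of 0, the medium lying at 0.06 to 0.49.

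Markers of continuous, capillarised or activated endothelium did not move as one. Of 13 tested, 6, 4 and 6 were above control, and 0 passed. Cd34, a surface protein of continuous capillaries, had a log2 fold change of 1.88 (SE 0.55) at the high dose and Cav1, caveolin-1, 1.64 (SE 0.61), with edgeR adjusted p of 0.365 and 0.377. Icam1, a leukocyte adhesion molecule, had -1.02, -1.11 and -1.02 in order of dose, with an adjusted p of 0.371 at the high dose. Esm1 was at 0 counts in 6 libraries and had at most 17, so no fold is given. Among the ligands and receptors of the VEGF and angiopoietin families, to which Kdr belongs, 11, 9 and 8 of 13 were above control with 0 past the threshold, and the co-receptor Nrp1 had 1.04 (SE 0.36) at the low and 0.92 (SE 0.36) at the high dose. Of the genes for making, binding and breaking down hyaluronan, the ligand of Stab2 and Lyve1, 6 of 10 were tested and 0 passed. Hyal1, a hyaluronidase, had 1.55 (SE 0.70) at the high dose, and Hyal2 -0.60 (SE 0.26). Lyve1 and Stab2, like Gpr182, are also known in lymphatic endothelium, and 0 of 6 lymphatic markers passed.

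Markers of other liver cells also differed between livers. All 10 hepatocyte markers were above control at each dose with 0 past the threshold, and their summed level was 6293 to 12478 CPM in control and 6126 to 47725 in high livers. Across the 12 livers Dnase1l3 had r = 0.93 and rho = 0.80 with the mean of these markers (permutation p = 8e-05 and 0.00304, adjusted over 36 relations of members with 4 lists, added after seeing the data, 0.00132 and 0.0156), and r was 0.85 without the 2 livers farthest from its median. With the pan-endothelial mean it had r = 0.89 and rho = 0.85 (permutation p = 0.0003 and 0.00085, adjusted 0.00216 and 0.00765), and r was 0.92 without the 2 farthest. With the mean of the stellate cell and fibroblast markers it had r = 0.88 and rho = 0.90 (permutation p = 7e-05 and 0.00026, adjusted 0.00132 and 0.00372), and r was 0.89 without the 2 farthest. Oit3, Gpr182 and Lyve1 also had a higher r with the hepatocyte mean (0.86, 0.87 and 0.74) than with the pan-endothelial mean (0.79, 0.79 and 0.65). Without the 2 farthest livers these were 0.78, 0.69 and 0.81 against 0.79, 0.76 and 0.82. Stab1, Stab2, Clec4g, Fcgr2b and Kdr had a lower r with the hepatocyte than with the pan-endothelial mean. By r, 8 of 9 members passed with the pan-endothelial, 5 with the hepatocyte, 4 with the stellate and 0 with the Kupffer cell mean, and by rho 4, 4, 3 and 0. The share of all genes that would pass with the same means is not given, so these counts are not read as particular to the members. The 12 stellate cell and fibroblast markers had a median log2 fold change of 0.88 at the high dose, and the 5 tested cholangiocyte markers 0.84, with 0 past the threshold in both. Kupffer cell markers were below control in 13, 12 and 9 of 13 and neutrophil markers in 7 of 7 at each dose, again with 0 past the threshold. Control replicate 2 stood far above the rest, with a mean centred log2 CPM of 1.19 for Kupffer cell and 2.28 for neutrophil markers. Control replicates 1 and 3 had 0.35 and -0.19 for Kupffer cell and 0.38 and 0.39 for neutrophil markers. High replicate 1, the highest treated liver, had 0.36 for both. Macrophages can also express Stab1, Lyve1 and Dnase1l3. The r of a member with the Kupffer cell mean was between -0.07 and 0.53. The part of all these cells in the member values was not tested.

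Among 9097 other named genes whose log2 CPM averaged 1 or more, predicted loci left out, the patterns most like the mean of the 9 members belonged to Rab22a (r = 0.97), C1galt1c1 (0.95), Cacybp (0.93), Vps36 (0.93) and Egfl7 (0.93). Trappc5 (0.92), Bzw1 (0.92), Lrrc58 (0.91), Alkbh7 (0.90) and Gnas (0.90) followed. Of these 10 only Egfl7, a secreted endothelial protein, was on an endothelial list here. Each of them also had an r of -0.74 to -0.89 with the mitochondrial share, and the mean of the members had -0.80.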

How the data were processed

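RNA was measured in 12 liver libraries, total RNA extracted with TRIzol and made into libraries with a Hieff kit, per the labels' protocols. The deposited values were raw whole-number counts per Ensembl gene, in 1 table whose 12 columns each matched a label. The submitters' processing notes name fastp 0.23.4 along with STAR 2.7.10b, StringTie 2.2.1 and build mm39. The counting step and its handling of strand and shared reads are not given in the sources used here. Symbols came from GENCODE M21, which named 52073 of 56923 IDs (91.5%), and IDs without a symbol held 0.812% of counts. As that annotation is on GRCm38, it was used for names, transcript lengths and overlaps, and coordinates are given only for the RefSeq promoters on GRCm38.p6.

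Tests were made with edgeR 4.0.16 under R 4.3.3 (filterByExpr, TMM, robust quasi-likelihood, all 12 libraries in 1 fit), with Benjamini-Hochberg adjustment over 16839 genes and a threshold of 0.05. Two-sided comparisons set each dose, and all doses, against control, fitted a slope on dose, and tested for any difference among the 4 groups. Correlations used log2 CPM (prior count 2) and 100000 permutations. Those with the mitochondrial share were planned with adjustment over the 9 members and were instead adjusted over every gene in the test. BLAST+ 2.17.0 found 11 near-identical nuclear copies of mitochondrial genes (95% identity or more along 80% or more of the length). DESeq2 1.42.0, limma 3.58.1 (voom with sample weights), other scalings, filters, a replicate block and leaving out each library were alternatives. The edgeR fit and the correlations were tested on simulated data.

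The members and the 12 context lists were chosen with earlier results of these data known. The rule for named genes allowed up to 4 from each list (smallest p among the 4 groups), any list gene past the threshold, and the 10 genes outside the members most correlated with them. Libraries of a group were not copies of each other (chi-square 38.5 or more for each degree of freedom). The edgeR p-values set differences between groups against the spread between these mice, estimated with information shared across genes. The permutation p-values treat the 12 livers as exchangeable across the groups. Libraries with the same number did not vary together beyond others, so replicate numbers were not taken as pairs.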

Additional observations from a re-analysis of the deposited data

How the results depend on the processing

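No member passed the threshold in any of the 5 comparisons under any of 21 alternatives, and the smallest adjusted p among them was 0.150. Of 945 values, 879 kept their sign. With 3 livers a group and the depth of 1741 to 9397 member counts a library, differences inside the intervals given are not excluded. Genes called were 32, 80, 157, 146 and 60 with DESeq2 (low, medium, high, all doses, slope), 35, 256 and 32 with limma at medium, high and all doses, 3 for all doses without the filter, and 3, 7, 6, 3 and 1 without the 4 livers under 50% mitochondrial share, beside 0 in edgeR. Leaving out single livers gave 0 to 2 at the low dose, 0 to 1 for all doses, and 0 elsewhere. The replicate block gave members' medians of 0.20, 0.34, 0.28, 0.36 and 0.15 and called 0 genes, and it changed no call. Same-numbered livers correlated at -0.26 to 0.45.

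Scaling by library totals put the members' median at 1.02 (high) and 0.87 (slope). It turned Stab2 to 0.087, 0.23, 0.52, 0.28 and 0.53, and Kdr to 0.64 (high), 0.27 (all doses) and 0.58 (slope), and put 9 members past the threshold with the share, beside 62.5% of all genes, and 36 pairs of members past theirs, where the median r over all pairs of genes was 0.72 and 38.2% of them reached the lowest r of the members' pairs, 0.79. With limma the low-dose values turned to -0.0066 (Lyve1), -0.11 (Fcgr2b), -0.27 (Oit3), -0.14 (Dnase1l3) and -0.021 (Kdr).

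With the share as a covariate, values turned at the low dose for Fcgr2b (-0.027), Oit3 (-0.15), Dnase1l3 (-0.13) and Kdr (-0.0084), and at the medium dose for Dnase1l3 (-0.035). At the high dose they turned for Clec4g (-0.043), Fcgr2b (-0.55) and Dnase1l3 (-0.45), for all doses for Fcgr2b (-0.17) and Dnase1l3 (-0.20), and on the slope for Clec4g (-0.17), Fcgr2b (-0.54), Gpr182 (-0.054) and Dnase1l3 (-0.41). Without the 4 livers they turned at the low dose for Lyve1 (-0.15), Fcgr2b (-0.21), Oit3 (-0.68), Dnase1l3 (-0.54) and Kdr (-0.038), and at the medium dose for Dnase1l3 (-0.048). At the high dose this held for Clec4g (-0.016), Fcgr2b (-0.53) and Dnase1l3 (-0.37), for all doses for Fcgr2b (-0.22), Oit3 (-0.038) and Dnase1l3 (-0.32), and on the slope for Fcgr2b (-0.35) and Dnase1l3 (-0.25). Both of these were chosen after seeing the data.

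Leaving out single livers moved values across 0 as follows. Low dose: Stab2 from -0.29 to 0.15, Lyve1 from -0.14 to 1.08, Fcgr2b from -0.20 to 0.47, Oit3 from -0.66 to 0.82, Dnase1l3 from -0.53 to 0.85 and Kdr from -0.15 to 0.33. Medium dose: Stab2 from -0.39 to 0.025 and Dnase1l3 from -0.061 to 0.79. High dose: Stab1 from -0.050 to 0.27, Stab2 from -0.39 to 0.019, Fcgr2b from -0.17 to 0.36 and Kdr from -0.44 to 0.13. All doses: Stab2 from -0.36 to 0.055 and Kdr from -0.40 to 0.077. Slope: Stab1 from -0.081 to 0.17, Clec4g from -0.088 to 0.34 and Fcgr2b from -0.13 to 0.37. The r of Stab1 with the share ran from -0.34 to 0.13, and 3 to 5 members passed, with no share of all genes given for these runs. The cause of these shifts was not tested.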
